A study of Mus musculus with 2 samples.

Results

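The T-box genes described here are 9 transcription factor genes: Tbx1, Tbx15, Tbx18, Tbx20 and Tbx22 of the Tbx1 subfamily, and Tbx2, Tbx3, Tbx4 and Tbx5 of the Tbx2 subfamily. They were taken from the gene tables by gene identifier without version and named by the GENCODE symbol on the mouse assembly GRCm38 (mm10). All 9 were found among the 43346 rows with a gene identifier. RNA came from the facial prominence of healthy mouse embryos of the strain labelled B6NCrl at embryonic day 13.5 (E13.5), with male and female embryos pooled, and no genotype or treatment was set. There was 1 group of 2 libraries, labelled as biological replicates 1 and 2. Their biosamples have different identifiers but the same donor identifier, and the spread between them may in part be technical. A single group leaves no contrast to test, and the values below carry no p. The tables held 30451502 expected counts in replicate 1 and 23777465 in replicate 2.

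T-box proteins bind DNA through a conserved domain, the T-box, and switch target genes on or off. Tbx2 and Tbx3 act mainly as repressors, whereas Tbx5 acts mainly as an activator in heart and forelimb. In the face, Tbx1 is known from the pharyngeal arches, teeth and palate, Tbx22 from the palate, and Tbx2 and Tbx3 from the jaw and palate mesenchyme.

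The coding sequences of the 9 genes were compared first, because reads from a family with shared sequence can be split between its members. One stretch of the T-box shows how alike they are at most. It was picked as the ungapped 60-nt window with the most shared positions. It holds 33 positions at which all 9 genes have the same base, and other stretches hold no more. It starts between coding base 195 in Tbx5 and coding base 468 in Tbx18, counted from 1 at the start codon of the longest GENCODE M21 coding sequence (GRCm38). The sequences are given 5′ to 3′ on the coding strand, and capitals mark the shared positions.
Tbx1: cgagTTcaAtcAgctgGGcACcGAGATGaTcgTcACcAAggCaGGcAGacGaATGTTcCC
Tbx15: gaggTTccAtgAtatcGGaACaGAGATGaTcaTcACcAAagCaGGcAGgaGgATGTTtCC
Tbx18: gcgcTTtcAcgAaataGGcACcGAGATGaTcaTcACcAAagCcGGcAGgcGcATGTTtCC
Tbx20: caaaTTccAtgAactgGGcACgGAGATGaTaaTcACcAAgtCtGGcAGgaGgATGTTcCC
Tbx22: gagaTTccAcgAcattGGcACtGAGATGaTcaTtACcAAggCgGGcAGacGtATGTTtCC
Tbx2: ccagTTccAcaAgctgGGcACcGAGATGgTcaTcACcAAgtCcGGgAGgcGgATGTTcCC
Tbx3: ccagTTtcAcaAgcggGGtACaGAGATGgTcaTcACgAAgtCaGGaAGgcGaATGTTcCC
Tbx4: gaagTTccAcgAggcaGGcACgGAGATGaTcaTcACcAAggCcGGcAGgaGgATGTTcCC
Tbx5: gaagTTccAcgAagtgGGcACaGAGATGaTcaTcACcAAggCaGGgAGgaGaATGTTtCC

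Even within the T-box the exact runs were short. Over the 36 pairs of members the longest run shared by the coding sequences was 11 to 23 nt, with a median of 15.5 nt. Tbx15 and Tbx18 shared a run of 23 nt, and so did Tbx4 and Tbx5; both are printed because they are the longest, 5′ to 3′ on the coding strand and in capitals throughout, since every base is shared.
Tbx15 and Tbx18: CATAGCTCTAAGTGGATGGTGGC
Tbx4 and Tbx5: CAGCTGAAAATTGAGAACAACCC

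Pairwise identity was taken over the best local alignment of the coding sequences, which covered 84 to 981 columns by pair. Tbx4 and Tbx5 had the highest identity, 77.3% over 671 columns. The lowest was 64.7%, for Tbx5 and Tbx20 over 538 columns. Tbx5 and Tbx22 had 76.2%, but over only 84 columns, so these percentages do not rank the pairs by likeness. Over whole transcripts the longest run shared by 2 members was 42 nt, a repeat of A and G outside the coding sequence in Tbx5 and Tbx22. All 46 deposited transcript rows of the members have an effective length of the transcript length minus 99 nt. The deposited posterior standard deviation of the gene count, which measures uncertain assignment of reads, was 0 in both libraries for 7 members. It was at most 1.28 counts, for Tbx3 in replicate 1.

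The 9 genes spanned a wide range of levels, given here in TPM, a relative abundance corrected for transcript length. Tbx3 was by far the most abundant and took 51.3% of the members' summed TPM in replicate 1 and 44.9% in replicate 2. Tbx15, Tbx2, Tbx18 and Tbx1 followed at moderate levels, Tbx22 and Tbx4 were low, and Tbx5 and Tbx20 lay below 1 TPM in both libraries. A gene was called detected where neither library fell below 1 TPM, and 7 of the 9 were, against 60.9% of 21474 protein-coding genes. The summed level of all 9 was 83.0 TPM in replicate 1 and 90.8 TPM in replicate 2. In bulk tissue, fewer cells of a type and less RNA per cell cannot be told apart.

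**Figure D1:**
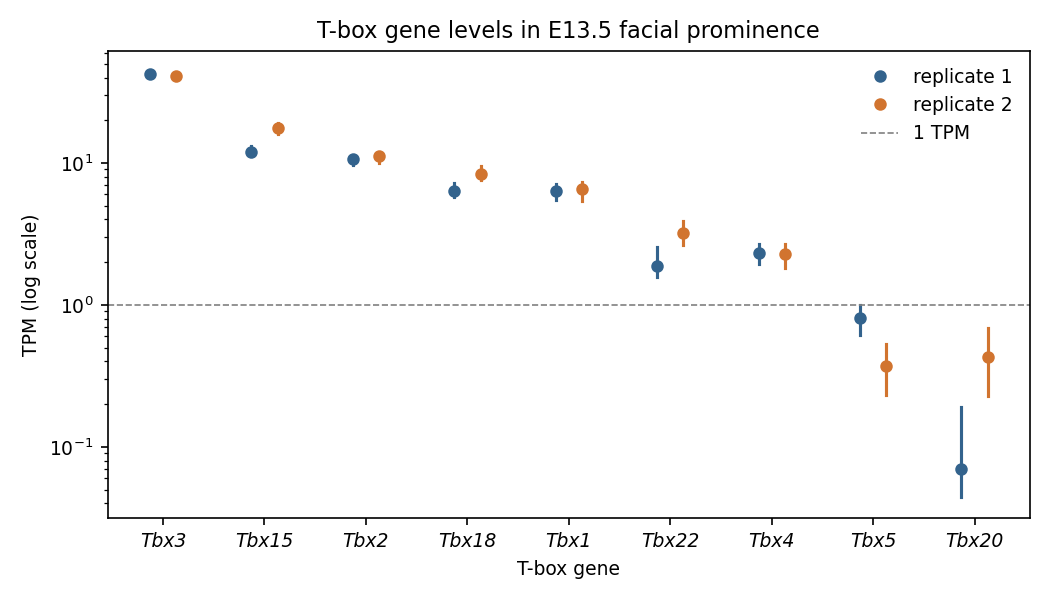
TPM on a log scale (vertical axis) of the 9 T-box genes, ordered by mean; points are single libraries, bars the deposited credibility intervals, and the dashed line marks 1 TPM. Tbx3 stands above all others at 42.54 and 40.79 TPM, while Tbx5 and Tbx20 lie below the line in both libraries.

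Among the Tbx2 subfamily, Tbx3 (ENSMUSG00000018604.14, chr5:119670669-119684724, plus strand) had 42.54 TPM in replicate 1 and 40.79 TPM in replicate 2, a mean of 41.7 ± 1.24 (SD, n = 2). This level was above that of 83.0% of protein-coding genes and rested on 4199.85 and 3076.81 expected counts. Tbx3, mutated in ulnar-mammary syndrome, represses cell cycle inhibitor genes and is a target of Bmp signalling. Tbx2 (ENSMUSG00000000093.6, chr11:85832551-85841948, plus strand), its closest relative, stood at 10.67 and 11.18 TPM, with a mean of 10.9 ± 0.361 (SD, n = 2). Tbx2 was lower than Tbx3 by nearly the same ratio in each library, a log2 ratio of -1.93 ± 0.09 (SD, n = 2).

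Tbx4 (ENSMUSG00000000094.8, chr11:85886422-85916097, plus strand), known from the hindlimb and lung, stood at 2.32 and 2.28 TPM, a mean of 2.30 ± 0.0283 (SD, n = 2). Tbx5 (ENSMUSG00000018263.8, chr5:119832668-119885219, plus strand), the gene of Holt-Oram syndrome, stood at 0.81 TPM in replicate 1 and 0.37 TPM in replicate 2. Its counts were 66 and 23, and its mean was 0.59 ± 0.311 TPM (SD, n = 2). The 4 genes form 2 linked pairs that arose by an ancient duplication. Tbx2 lies 44473 bp from Tbx4 on chromosome 11, and Tbx3 lies 147943 bp from Tbx5 on chromosome 5. In each pair the Tbx2 or Tbx3 partner was the more abundant. Tbx2 was 4.60-fold above Tbx4 in replicate 1 and 4.90-fold in replicate 2, a log2 ratio of 2.25 ± 0.07 (SD, n = 2). Tbx3 was 52.5-fold above Tbx5 in replicate 1 and 110-fold in replicate 2. The first ratio was nearly the same in both libraries, while the second followed the difference in Tbx5.

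Among the Tbx1 subfamily, Tbx15 (ENSMUSG00000027868.7, chr3:99240381-99354259, plus strand), a gene of skeletal and dermal mesenchyme, was highest. It had 12.03 TPM in replicate 1 and 17.64 TPM in replicate 2, a mean of 14.8 ± 3.97 (SD, n = 2). Its sister gene Tbx18 (ENSMUSG00000032419.8, chr9:87702800-87731260, minus strand), known from the epicardium, ureter and somites, had 6.32 and 8.36 TPM, a mean of 7.34 ± 1.44 (SD, n = 2). Both sisters were higher in replicate 2, and the log2 ratio of Tbx15 to Tbx18 was 1.00 ± 0.11 (SD, n = 2).

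Tbx1 (ENSMUSG00000009097.9, chr16:18580979-18590671, minus strand), the main gene of the 22q11 deletion (DiGeorge) syndrome, had 6.37 TPM in replicate 1 and 6.54 TPM in replicate 2. Its mean was 6.46 ± 0.120 TPM (SD, n = 2) on 226 and 177 counts, so its level hardly differed between the libraries. Tbx22 (ENSMUSG00000031241.13, chrX:107667964-107688978, plus strand), mutated in X-linked cleft palate with ankyloglossia, had 1.87 and 3.22 TPM, a mean of 2.55 ± 0.955 (SD, n = 2) on 121 and 151 counts. Tbx20 (ENSMUSG00000031965.10, chr9:24718138-24774303, minus strand), a heart gene, had 0.07 TPM on 10 counts in replicate 1 and 0.43 TPM on 26 counts in replicate 2. Its mean of 0.25 ± 0.255 TPM (SD, n = 2) was the lowest of the 9.

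In the order Tbx3, Tbx15, Tbx2, Tbx18, Tbx1, Tbx22, Tbx4, Tbx5, Tbx20, neighbours were called apart where their deposited credibility intervals of TPM did not overlap in either library. This held for 5 of the 8 neighbouring pairs. The 3 that were not apart were Tbx18 and Tbx1, Tbx22 and Tbx4, and Tbx5 and Tbx20. These intervals cover uncertainty within a library. Against the spread between libraries, 1 of the 8 log2 ratios, that of Tbx3 over Tbx15 at 1.52 ± 0.43 (SD, n = 2), exceeded 3 times its SD.

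The libraries were then compared gene by gene with counts scaled by TMM, as the log2 ratio of replicate 2 over replicate 1. Only Tbx20 was at least 2-fold higher in replicate 2, as were 2.75% of 15010 protein-coding genes with a mean count of 10 or more. Only Tbx5 was at least 2-fold lower, as were 1.11% of those genes. In either direction this made 2 of the 9 members, against 3.86% of those genes. The bracketed exact Clopper-Pearson 95% intervals below cover counting error only. Tbx20 was 2.97-fold higher, a log2 ratio of 1.57 [0.57, 2.89]. Tbx5 was 2.29-fold lower, a log2 ratio of -1.20 [-1.98, -0.53]. In TPM the ratio of Tbx20 was 6.14 and in unscaled counts 2.60. Its effective length differed, at 6337 nt in replicate 1 and 3773 nt in replicate 2, and TPM is also scaled to each library's total and deposited with 2 decimals.

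The other 7 members differed less. Tbx22 had a log2 ratio of 0.61 [0.26, 0.97], Tbx15 of 0.42 [0.29, 0.56] and Tbx18 of 0.31 [0.14, 0.47]. The ratio was -0.16 [-0.22, -0.09] for Tbx3, -0.14 [-0.52, 0.23] for Tbx4, -0.06 [-0.35, 0.23] for Tbx1 and -0.03 [-0.18, 0.12] for Tbx2. The intervals of Tbx1, Tbx2 and Tbx4 included 0, and those of Tbx3, Tbx15, Tbx18 and Tbx22 did not. With counts as high as those of Tbx3, a small difference is enough to leave out 0. The share of protein-coding genes whose counting interval leaves out 0 was not taken, so this split is not read as a trait of the members. Scaling by spike-in RNA instead raised the ratios by 0.56, or slightly less for Tbx5 and Tbx20 with their low counts. Those of Tbx1, Tbx2, Tbx3 and Tbx4 then lay above 0, while Tbx5 stayed below it at -0.65. The counting interval of Tbx5 ended at -0.53 with TMM, so moved by 0.56 it would no longer leave out 0. On that scale Tbx20 at 2.09 and Tbx22 at 1.16 were at least 2-fold higher, as were 7.85% of the protein-coding genes, and no member was 2-fold lower, against 0.34%.

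**Figure D2:**
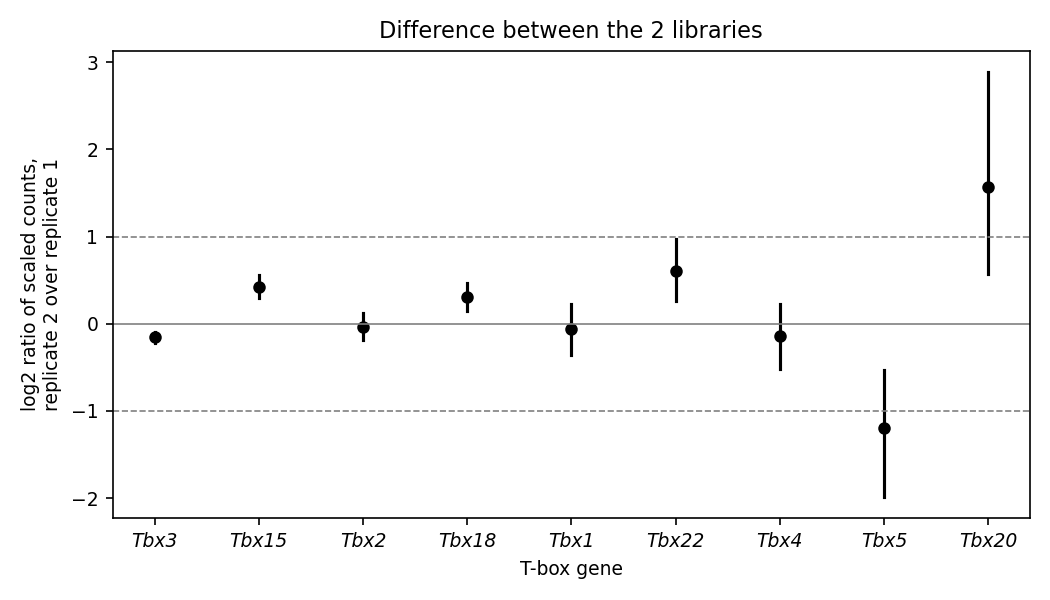
Log2 ratio of TMM-scaled counts, replicate 2 over replicate 1 (vertical axis), for the 9 T-box genes ordered by level; bars are exact 95% counting intervals and dashed lines mark a 2-fold difference. Tbx20 at 1.57 and Tbx5 at -1.20 lie outside the dashed lines, and the other 7 lie between them; with spike-in scaling Tbx5 at -0.65 lies inside and Tbx22 at 1.16 outside.

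By deposited TPM intervals, 4 members were higher in replicate 2 without overlap (Tbx15, Tbx18, Tbx20 and Tbx22). The background was 14.4% of the 15010 protein-coding genes with a mean count of 10 or more. Tbx5 was lower without overlap, against 4.97% of those genes, and the intervals of Tbx1, Tbx2, Tbx3 and Tbx4 overlapped. This split moved with the scale, because spike-in rows made up 13.4% of all TPM in replicate 1 but 9.68% in replicate 2. With the intervals rescaled to gene rows alone, 2 members were higher (Tbx15 and Tbx20; background 9.01%) and 2 lower (Tbx3 and Tbx5; background 9.49%). Tbx15, Tbx20 and Tbx5 kept their call on both scales.

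Markers of other organs also differed between the libraries. All 7 heart markers with a mean count of 10 or more were at least 2-fold higher in replicate 2, and the 8 summed to 7.07 TPM in replicate 1 and 59.68 TPM in replicate 2. Among them the ventricular light chain gene Myl2 had 0 counts in replicate 1 and 196 in replicate 2. Myh6 and Myh7, the cardiac myosin heavy chains, had 0.26 and 0.93 TPM in replicate 1, and 1.64 and 5.36 TPM in replicate 2. Nkx2-5, a partner of Tbx5 and Tbx20 in the heart, had 9 and 45 counts. Tbx20 was higher in the library with the higher heart markers, and Tbx5, which the heart also expresses, was lower in it. All 9 liver markers were at least 2-fold higher in replicate 2 as well, and summed to 15.55 TPM in replicate 1 but 378.02 TPM in replicate 2.

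The 4 lung markers summed to 3.92 TPM in replicate 1 but 0.30 TPM in replicate 2, and most of the first sum was Sftpc, at 3.22 TPM. Sftpc, which encodes a surfactant protein, had 48 and 2 counts. Sftpb had 3 and 0 counts, Scgb3a2 5 and 0, and Nkx2-1 2 and 4. Tbx5 and Tbx4 are both also genes of the lung. Tbx5 was lower in replicate 2, while Tbx4 hardly differed, at 2.32 TPM in replicate 1 and 2.28 TPM in replicate 2. None of the 10 Hox genes listed for limb and trunk was detected in both libraries, and 4 of them, Hoxa11, Hoxa13, Hoxd11 and Hoxd12, had 0 counts in both. The summed level of these 10 was 1.32 TPM in replicate 1 but 0.74 TPM in replicate 2. Hoxd9, with 46 and 20 counts, made up most of it, at 1.07 and 0.61 TPM. The part of any of these tissues in the values of Tbx5 and Tbx20 was not tested.

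**Figure D3:**
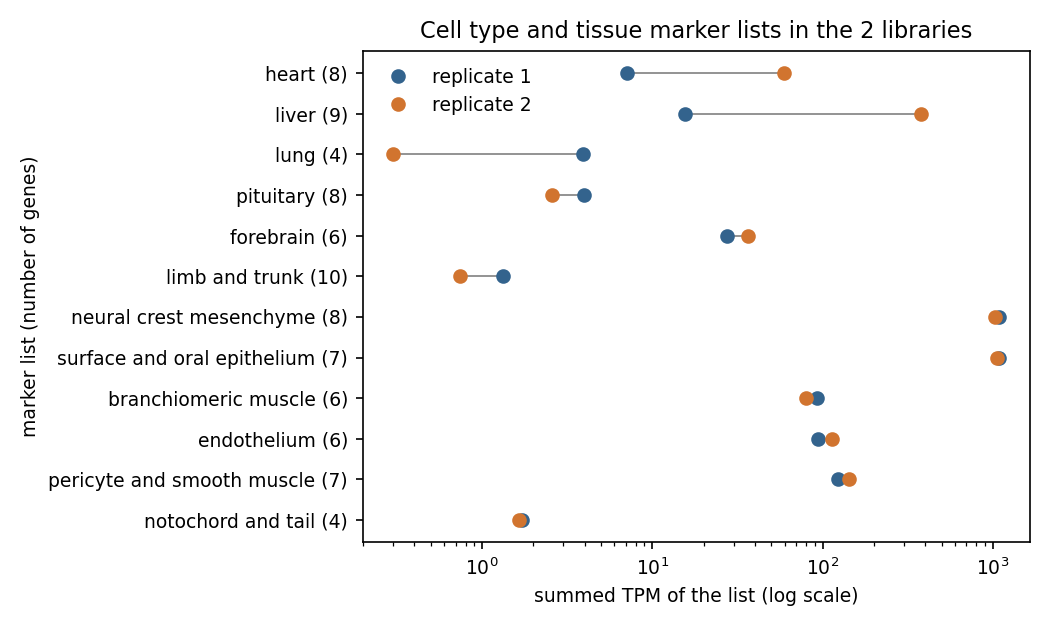
Summed TPM on a log scale (horizontal axis) of 12 marker lists (vertical axis, number of genes in parentheses) in replicate 1 and replicate 2, with a line joining the libraries. Heart (7.07 and 59.68 TPM) and liver (15.55 and 378.02 TPM) lie higher in replicate 2 and lung (3.92 and 0.30 TPM, mostly Sftpc) higher in replicate 1, while mesenchyme and epithelium lie close together.

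Markers of the labelled tissue were high in both libraries. All 8 genes of neural crest mesenchyme were detected, with sums of 1088.55 and 1028.32 TPM, led by Msx1, Alx1, Prrx1 and Snai1. The surface and oral epithelium list was detected in all its 7 genes, with sums of 1094.09 and 1055.97 TPM, and Krt8, a keratin of simple epithelia, was 2.13-fold higher in replicate 2. Muscle, endothelium and pericyte lists summed to 79.48 to 142.61 TPM. Of 6 forebrain genes 2 were detected, and Neurod6, a gene of cortical neurons, was 2.12-fold higher in replicate 2. The notochord list had none of its 4 genes detected and the pituitary list 1 of 8, Pomc.

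Transcripts of the members were compared next. Tbx3 makes 2 protein forms that differ by 1 coding exon inside the T-box, which is skipped or kept by splicing. In the annotation this exon is found only in Tbx3-201, where it is exon 3 of 8 and 60 nt long, at chr5:119675243-119675302 on the plus strand (GRCm38). It is shown with 15 nt of each neighbouring exon, and then the junction without it, 5′ to 3′, with the exon in capitals.
Tbx3-201: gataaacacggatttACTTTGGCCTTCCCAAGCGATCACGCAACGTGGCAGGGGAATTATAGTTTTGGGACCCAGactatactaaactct
Tbx3-203: gataaacacggatttactatactaaactct

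The form without the exon was the more abundant. Tbx3-201, with the exon, held 32.3% of the gene's TPM in replicate 1 and 34.4% in replicate 2, a mean of 33.4% ± 1.48 (SD, n = 2). Tbx3-202 and Tbx3-203, both without it, together held 65.9% and 63.6%, a mean of 64.8% ± 1.63 (SD, n = 2). The coding sequence is 2223 nt with the exon and 2163 nt without. The balance between the forms thus moved little between the libraries, but that of the 2 transcripts without the exon moved more. Tbx3-203 held 49.0% and 38.9%, and Tbx3-202 held 17.0% and 24.7%. The 60 nt of the exon are the only bases of Tbx3-201 that no other GENCODE M21 transcript of the gene holds. By that count Tbx3-202 and Tbx3-203 have no such base, but M21 models absent from the tables were counted too. Among the 5 transcripts in the tables, Tbx3-202 starts first, at chr5:119670669, and Tbx3-203 next, at chr5:119670862. The first bases of Tbx3-202 are thus in none of the others. The deposited intervals of Tbx3-201 were wide, from 10.1 to 16.3 TPM in replicate 1 and from 10.0 to 17.1 TPM in replicate 2.

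**Figure D4:**
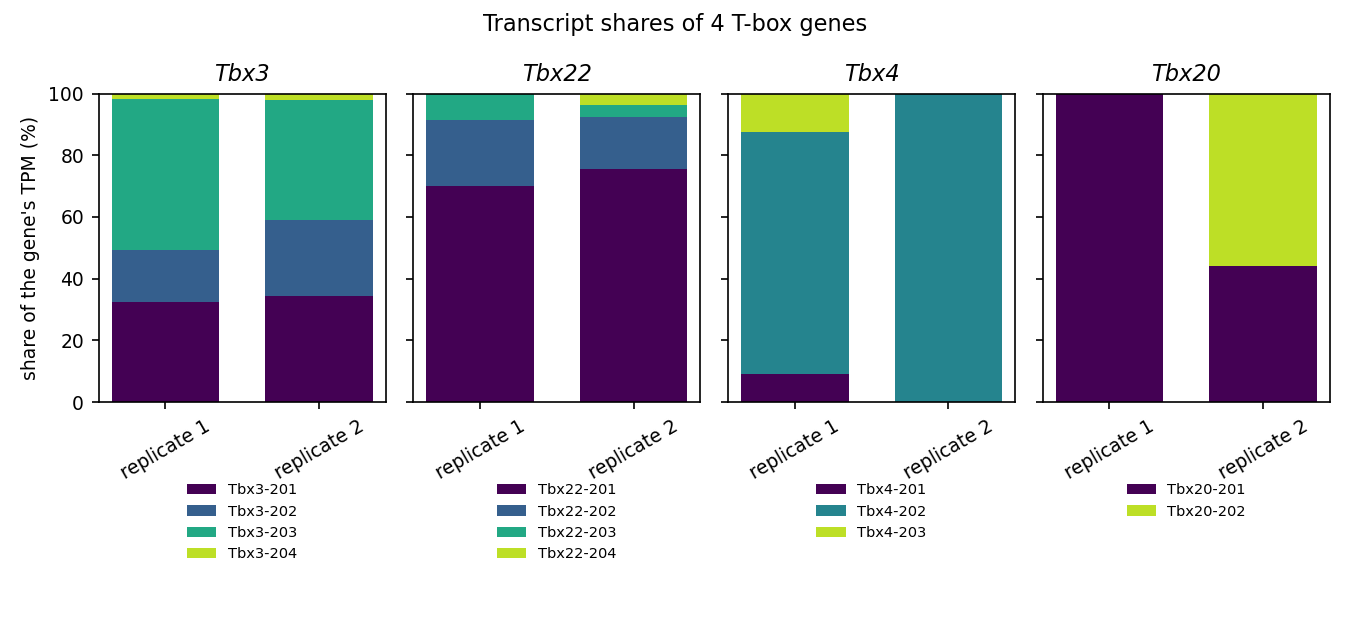
Share of each gene's TPM in percent (vertical axis) held by its annotated transcripts in the 2 libraries for Tbx3, Tbx22, Tbx4 and Tbx20; stacked bars sum to 100. Tbx3-201, which holds the alternative exon, takes 32.3% and 34.4%, and Tbx20 changes its leading transcript between the libraries.

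Tbx22 was led by Tbx22-201, with 70.1% of its TPM in replicate 1 and 75.5% in replicate 2. Tbx22-202 held 21.4% and 16.8%, and Tbx22-203 held 8.56% and 4.04%. Tbx22-201 and Tbx22-204 share a coding sequence of 945 nt, against 1551 to 1593 nt in Tbx22-202 and Tbx22-203. Transcripts with the shorter coding sequence held 74.6% ± 6.46 (SD, n = 2). These shares rest on few reads: the transcripts with the longer one had 41.95 counts in replicate 1 and 36.43 in replicate 2. Only 55 bases of Tbx22-201 and 42 of Tbx22-202 are in no other GENCODE M21 transcript of the gene.

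Tbx4 was led by Tbx4-202, with 78.5% in replicate 1 and 100% in replicate 2. In replicate 1 Tbx4-203 held 12.4% and Tbx4-201 held 9.01%, on 18.76 and 12.72 counts, and both were listed at 0 in replicate 2. The deposited bounds in replicate 2 still reached 0.93 TPM for Tbx4-201 and 0.49 TPM for Tbx4-203. By deposited posterior mean TPM, Tbx4-202 held 71.0% and 78.6%, Tbx4-203 held 14.7% and 7.14%, and Tbx4-201 held 14.3% in both libraries. Only 2 bases of Tbx4-201 are in no other GENCODE M21 transcript of the gene. The coding sequence of Tbx4-202 is 1356 nt, against 1656 nt in the other two. Tbx4-202 and Tbx22-201 each start inside the gene, downstream of the starts of the transcripts with the longer coding sequence. The genomic bases just before these 2 starts are shown because the leading transcripts begin there, 5′ to 3′ on the plus strand of GRCm38, at chr11:85896515-85896764 for Tbx4-202 and chrX:107678765-107678962 for Tbx22-201. Capitals mark the only match to the motifs searched.
Tbx4-202: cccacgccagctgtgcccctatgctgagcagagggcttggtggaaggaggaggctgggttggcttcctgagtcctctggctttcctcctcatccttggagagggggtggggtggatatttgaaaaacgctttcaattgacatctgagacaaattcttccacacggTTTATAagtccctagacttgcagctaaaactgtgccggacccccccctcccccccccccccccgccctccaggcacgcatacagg
Tbx22-201: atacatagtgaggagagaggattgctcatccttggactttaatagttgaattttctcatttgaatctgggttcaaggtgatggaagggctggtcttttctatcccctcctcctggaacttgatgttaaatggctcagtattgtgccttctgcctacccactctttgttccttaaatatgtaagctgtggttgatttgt

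The motifs were TATAAA (the TATA box), CCAAT and GGTGTGA (the core that T-box proteins bind), each on both strands, and none of the 3 contains another. The match before Tbx4-202 is TATAAA read on the opposite strand. Letters were matched at any distance from the start, and whether this match serves as a TATA box was not tested. RefSeq promoters (GRCm38.p6, 300 nt, from 250 before to 50 after each start) matched 5 members with 8 starts: Tbx1, Tbx4, Tbx18, Tbx20 and Tbx22. TATAAA was in 1 of the 8 and in 13.6% of all 32817 promoters of that length. CCAAT was in 2 of the 8, of Tbx18 and Tbx22, and in 37.4% of all. GGTGTGA was in 0 of the 8 and in 3.98% of all. The CG dinucleotide, whose density marks CpG islands, occurred 26 times in the promoter of Tbx20 and 26 and 16 times in the pair for Tbx1. It occurred 1 or 2 times in the 3 of Tbx22, against a median of 7 over all promoters. The promoter of Tbx20, the least abundant member, was thus among the richest of these in CG.

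For Tbx20 the leading transcript changed, but on few reads. Tbx20-201 held 100% in replicate 1 on 10 counts, and in replicate 2 it held 44.2% on 19.56 counts while Tbx20-202 held 55.8% on 6.44 counts. Tbx15-201 held 100% and 97.7% of Tbx15, and Tbx18-201 held 100% in both libraries. Tbx1, Tbx2 and Tbx5 had 1 transcript each in the tables. Of the 6 members with several transcripts, the leading transcript was the same for 5, against 87.6% of 10523 protein-coding genes.

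The other 8 T-box genes were nearly silent except for 1. Mga, which encodes a very large protein with a T-box and a Max-binding domain and is active in most cells, had 29.23 TPM in replicate 1 and 25.88 TPM in replicate 2, a mean of 27.6 ± 2.37 (SD, n = 2). Brachyury (T), the founding member and a notochord gene, had 0.75 and 0.76 TPM. Tbx6 had 0.20 and 0.46 TPM, Tbr1 0.15 and 0.26, Eomes 0.15 and 0.07, and Tbx21 0.06 and 0.08. Tbx10, the closest relative of Tbx1, had 1 count in replicate 1 and 0 in replicate 2. Tbx19, a pituitary gene, had 0 counts in both, where a count of 0 allows up to 3 counts, or 0.105 and 0.132 CPM, the share of gene counts scaled to a fixed total. Pomc, the hormone gene that Tbx19 activates, had 63 and 31 counts. Over all 17 T-box genes, 8 were detected, against 60.9% of protein-coding genes.

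Genes of the pathways around the members were then counted, beside a median level of 4.68 TPM over all protein-coding genes. Of 7 genes known upstream of Tbx1, 5 were detected, with a median of 2.52 TPM, and none differed 2-fold. Among them were Eya1 at 33.4 ± 3.34, Chd7 at 14.5 ± 0.346 and Foxc1 at 2.52 ± 1.01 TPM (SD, n = 2). Shh, which acts on Tbx1 through forkhead factors, had 0.84 and 0.82 TPM.

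Of 12 genes known downstream of Tbx1, 10 were detected, with a median of 4.11 TPM. Cyp26b1, whose product breaks down retinoic acid, had 25.0 ± 0.962 TPM (SD, n = 2). Lhx2 and Fgf10 had lower levels, at 10.6 ± 4.34 and 7.68 ± 0.608 TPM (SD, n = 2). Gbx2, a homeobox gene of the first arch, was the only one with a mean count of 10 or more that differed at least 2-fold, at 31.6 and 4.92 counts, 4.58-fold lower in replicate 2.

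The list upstream of Tbx2, Tbx3 and Tbx22 includes Bmp ligands, receptors and Smads, Mn1 and Msx1. Of its 14 genes, 13 were detected, with a median of 34.7 TPM, and none differed 2-fold. Msx1 had 419.8 ± 29.1 TPM and Bmp4, an inducer of Tbx2 and Tbx3, had 49.6 ± 3.06 TPM (SD, n = 2). Mn1, an activator of Tbx22 in the palate, had 38.57 and 35.81 TPM.

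Of 8 genes that Tbx2 or Tbx3 are known to repress, 6 were detected, with a median of 11.6 TPM. The gap junction gene Gja1 had 230.3 ± 9.05 TPM, the cell cycle inhibitor Cdkn1a 62.7 ± 7.76 TPM, the E-cadherin gene Cdh1 31.3 ± 4.04 TPM and Ndrg1 12.7 ± 1.64 TPM (SD, n = 2). The inhibitor gene Cdkn2a had 1 count in replicate 1 and 0 in replicate 2. Nppa, the atrial peptide gene, had 3 and 102 counts and is also 1 of the 8 heart markers.

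All 11 genes listed under corepressors were detected, with a median of 51.6 TPM and none 2-fold different. Aes, Hdac2, Hdac1 and Ncor1 were highest, at 296.0 ± 3.63, 258.3 ± 17.5, 183.1 ± 2.97 and 130.2 ± 12.9 TPM (SD, n = 2). Of the 12 partners in heart and limb, 7 were detected, against 60.9% of protein-coding genes, with a median of 1.91 TPM. Pax3 led at 61.7 ± 0.375 TPM, followed by Mef2c at 55.3 ± 1.67 TPM (SD, n = 2). Pitx1, a homeobox gene of lower jaw and hindlimb, had 47.00 TPM in replicate 1 and 21.24 TPM in replicate 2, 2.32-fold lower. The bHLH genes Hand1 and Hand2, of distal jaw mesenchyme and heart, were 3.99- and 3.04-fold lower in replicate 2. Hand1 had 145 and 29 counts and Hand2 296.45 and 78.88. Hand1, Hand2 and Pitx1 were thus lower in the library in which Tbx5 was lower, and Nkx2-5 was 5.56-fold higher in it. The part of jaw region in the value of Tbx5 was not tested.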

How the data were processed

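Each of the 2 libraries had a gene and a transcript table. Per the labels, 10 ng of RNA over 200 nt, extracted with Ambion mirVana, was used, and a SMARTer Ultra Low RNA kit manual is linked. Assembly mm10 and GENCODE M4 are named in the deposited notes. Aligner, quantifier and strand setting are not given in the sources used here. Without strand, reads of overlapping genes on opposite strands cannot be told apart.

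The expected count columns hold, per the file headers, reads per feature as estimated by the authors, which need not be whole. Deposited TPM values are scaled over all rows, spike-ins included. The deposited credibility bounds are a signal in TPM whose level is not stated in the headers. Deposited FPKM values served as an alternative. The deposited isoform percent was replaced by shares of transcript TPM.

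Symbols came from GENCODE M21, with which 42462 of 43346 gene rows matched. Models differ in length from the deposited tables for Tbx1-201, Tbx5-201, Tbx20-201 and Tbx20-202. Spike-ins took 6.27% and 4.45% of counts and stayed out of library sizes. Expected counts were rounded and scaled with TMM (edgeR 4.0.16, prior count 1), with DESeq2 1.42.0 size factors as an alternative, in R 4.3.3 and Python 3.11.15. Intervals used scipy 1.17.1, pairwise alignments used Biopython 1.88, and the 60-nt window came from a MAFFT alignment of all 9 coding sequences. The ratio step was run on simulated Poisson counts with as many genes raised as lowered and no spike-ins. That run covers the arithmetic of the ratio and cannot decide between the scalings. Named genes were the members, the other T-box genes, each list's 4 highest by mean TPM and its genes at least 2-fold different with a mean count of 10 or more, genes within 20 kb of a member, and transcripts with 5% or more of a member's TPM; Shh, Mn1 and Cdkn2a, the single marker genes without a 2-fold call and minor transcripts were named after their values were seen. Not every gene the rule took is printed, and some list genes are not reported here. Members and lists were chosen with earlier results of these data known. Gene pairs, the comparison of intervals between libraries, sequence windows and motifs were chosen after seeing the data.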

Additional observations from a re-analysis of the deposited data

How the results depend on the processing

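The number of neighbouring pairs called apart, 5 of 8, was 1 when the mean log2 ratio had to exceed 3 times its SD, and 8 neighbouring pairs kept their order by mean CPM, without length correction, although Tbx22 (4.24) lay below Tbx4 (4.98) in replicate 1 and Tbx5 (1.01) below Tbx20 (1.14) in replicate 2. It was 6 without either library. The number of detected members was 7 without either library and 6 to 7 over all alternatives. The other alternatives left the number of detected members, of members 2-fold different (2 or 3) and of shared leading transcripts (5) within 1.5 times, although with spike-in scaling the 2 were Tbx20 and Tbx22 in place of Tbx20 and Tbx5. Members with intervals apart between libraries numbered 5, 6 by exact counting intervals and 4 on gene rows alone, the latter 2 alternatives being chosen after seeing the data. No background share was taken for the exact counting intervals. Spike-in scaling moved 7 of the 9 log2 ratios beyond their counting interval, and TPM over gene rows alone moved 4 of the 9 means beyond 1 SD. No paired analysis was possible because both libraries belong to 1 group. Depth limits Tbx5 and Tbx20 most, with 10 to 66 counts a library.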

Other observations

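In the 20 kb around the members 14 other genes are annotated, of which 11 are in the tables and 5 were detected. Tbx3os1, an antisense gene at chr5:119570130-119671365 that overlaps Tbx3 by 697 bp, had 17.26 TPM in replicate 1 and 13.50 TPM in replicate 2. Its 104.15 and 64.19 counts were a small fraction of those of Tbx3, and its TPM rests on an effective length of 285 to 295 nt. Reads in the overlap cannot be assigned to a strand here. Tbx3os2, 370 bp beyond the other end of Tbx3, had 0.34 and 0.80 TPM. Near Tbx2, 2610027K06Rik starts 327 bp away on the opposite strand and had 4.45 and 4.06 TPM, and Bcas3, 6492 bp away, had 24.77 and 21.97 TPM.

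Wars2, a mitochondrial tRNA synthetase gene 1194 bp from Tbx15, had 8.48 TPM in replicate 1 and 7.84 TPM in replicate 2. It did not share the higher level of Tbx15 in replicate 2: its log2 ratio was -0.23, against 0.42 for Tbx15. Gnb1l, 14299 bp from Tbx1, had 12.92 and 12.89 TPM, about as even between the libraries as Tbx1. D030062O11Rik overlaps Tbx18 by 1976 bp on the opposite strand and had 0.08 and 0.05 TPM. Gm43120, an antisense gene that overlaps Tbx15 by 6588 bp, has no value here. Any reads of it within exons of Tbx15 could not be told from those of Tbx15. The remaining 4 in the tables, 4930588K23Rik beside Tbx1, Gm37374 beside Tbx18, Gm11444 beside Tbx2 and Gm16064 beside Tbx3, had at most 0.52 TPM in either library.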
